A study of Saccharomyces cerevisiae with 21 samples.

Results

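Phosphorus-limited yeast was compared with carbon-limited yeast on the 3 arrays of each wild-type group, 6 of the 21 arrays of the series, and all genes measured on them were followed. The study set transcript levels of Saccharomyces cerevisiae in anaerobic chemostats against the nutrient that limited growth, with Affymetrix YG-S98 arrays. In a chemostat fresh medium flows in at a fixed rate and 1 nutrient sets how fast the cells grow, so groups limited by different nutrients can be held at the same growth rate. The wild type was CEN.PK113-7D, a haploid laboratory strain. The phosphorus-limited (P) cultures are labelled as its prototrophic form with the genotype MATa MAL2-8c SUC2, and the carbon-limited (C) cultures only as CEN.PK 113-7D (MATa). The dilution rate, which equals the growth rate, was 0.10 per h in every group, and the pH 5.0. The C-limited cultures were fed 25 g/L glucose, the limiting nutrient, at 30 °C under nitrogen gas, whereas residual glucose was aimed at 17 g/L in the P-limited cultures. A comparison of P with C limitation therefore also sets abundant against scarce glucose. Tween-80, a source of unsaturated fatty acids, and ergosterol, which yeast cannot make without oxygen, are stated for the P-limited medium and are not mentioned for the C-limited one. Culture in triplicate is stated for the P-limited group, whereas for the C-limited group nothing says that the arrays came from separate cultures, so its spread may be technical.

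A pair of further groups served to place the differences. The sulfur-limited (S) wild type carries the same genotype label as the P-limited one, was grown with the same aim for residual glucose and comes from the same deposit, so P against S limitation leaves out both glucose and deposit. A C-limited mutant with the genotype ura3 msn2::loxP msn4::loxP-kanMX-loxP and a URA3 plasmid, which lacks the general stress transcription factors Msn2 and Msn4, also shares that deposit. It was set against P limitation after the wild-type values had been seen. Its replicate 1 read far from its other arrays for glucose-repressed genes (RGI2, a respiratory growth gene, at 12.0 against 302 and 225). Counts of genes called per list against this mutant are given with and without that array. Values of single genes against the mutant use all its arrays. All 3 comparisons share the P-limited arrays.

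The C-limited wild type is a deposit of its own, so deposit and limitation cannot be told apart in the comparison with it. Before scaling, the C-limited arrays had trimmed means of 235.0 to 251.0 and the P-limited arrays of 150.1 to 150.2, and all were brought to 150.2. Any value below 12 was set to 12, called the floor here. It held 29.0% to 29.5% of the probe sets of a C-limited array and 32.3% to 33.6% of a P-limited one. Actin signal at the 3' end over that at the 5' end, a ratio that rises as RNA is degraded, was 1.05 to 1.20 under C, 1.22 to 1.41 under P and 1.30 to 1.37 under S limitation. Its part in the differences was not tested. Arrays of a group correlated at 0.9825 to 0.9883 (C) and 0.9715 to 0.9794 (P) across probe sets. Checked against the MATa label, the a-cell genes STE2, BAR1, AGA2, MFA1 and MFA2 were measured well above the floor on all 6 arrays, with the exception of ASG7 at 12.6 to 22.8, and the alpha-cell genes STE3, MF(ALPHA)1 and SAG1 stayed at 15.3 to 70.5. With 3 arrays in a group, precision is limited by their number. In whole cultures, a change in RNA per cell and a change in the share of cells that make it cannot be told apart.

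Yeast senses phosphate through the PHO pathway. When phosphate is scarce, the inhibitor Pho81 blocks the cyclin-dependent kinase Pho80-Pho85, the transcription factor Pho4 stays in the nucleus, and with Pho2 it switches on genes that import phosphate, free it from organic compounds and handle its vacuolar store, polyphosphate. The cell also keeps low-affinity phosphate transporters, used when phosphate is plentiful.

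A gene was called where P and C limitation differed at least 2-fold with an adjusted p under 0.05. Of the 5450 genes tested, 657 were called (12.1%), of which 223 were higher (4.09%) and 434 lower (7.96%) under P limitation. The split between higher and lower moves with the scaling: the median log2 difference of all genes was -0.16 here, -0.03 after quantile normalisation (272 higher and 302 lower) and 0 with a common median (335 higher and 261 lower). Among larger changes, 42 genes were at least 4-fold higher and 65 at least 4-fold lower, and at 8-fold the counts were 20 and 20. Of the 6 genes called at least 32-fold higher, 5 were phosphate genes (PHO84, SPL2, GIT1, PHO89 and PHO3) and the other was HXT4, a hexose transporter. In P against S limitation 256 genes were called (4.7%), 113 higher (2.07%) and 143 lower (2.62%).

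**Figure D1:**
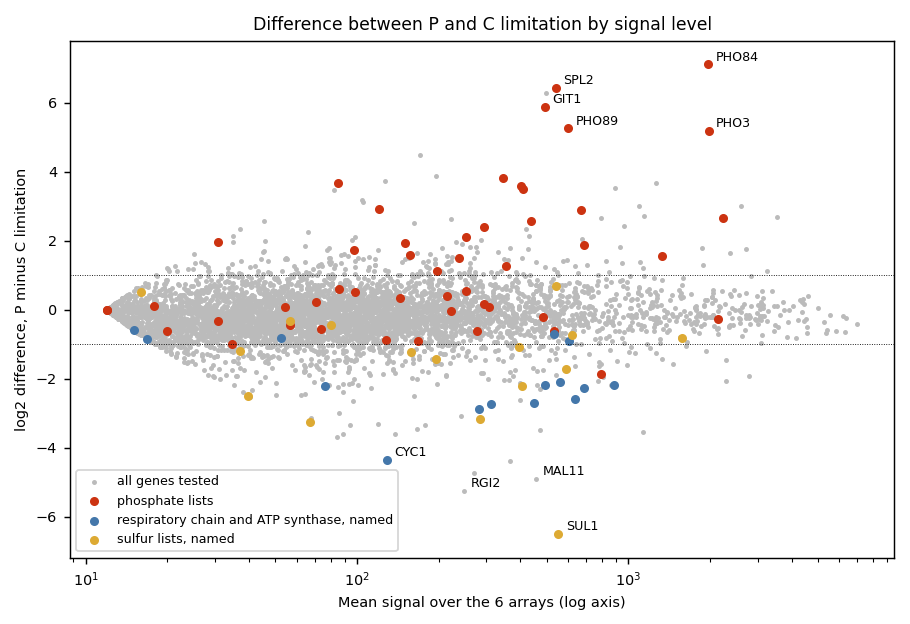
Each point is a gene tested, with its mean signal over the 6 arrays on the x axis (log scale) and its log2 difference, P minus C limitation, on the y axis; dotted lines mark a 2-fold difference. Red points are members of the phosphate lists, blue and yellow points are named respiratory and sulfur genes; PHO84 stands highest at 7.12 and SUL1 lowest at -6.50.

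In 6 lists of phosphate genes, 49 members were tested, of which 24 were higher, 1 was lower and 24 were not called. The 24 higher include CTF19, a kinetochore gene described below. The median log2 difference of the 49 was 0.61, beside -0.16 over all genes. In P against S limitation, 22 of the 49 were higher and 1 lower. The arrays of the 2 groups did not overlap for any of the 25 genes called against C limitation. Of all genes, called or not, 40.6% met this condition. The thresholds of a call nearly require it, as with all 20 called respiratory chain genes, so it adds no separate support.

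Among transporters, the gene of the high-affinity proton-coupled phosphate transporter PHO84 (YML123C) read 33.4, 28.3 and 23.6 on the C-limited arrays and 3413, 4347 and 4008 on the P-limited ones. None of the 5450 genes rose further: 139-fold, or log2 7.12 ± 0.22 (standard error, adjusted p = 1.6e-11). Every P-limited array lay above every C-limited array. On the S-limited arrays PHO84 read 17.0, 12.0 and 12.0. PHO89 (YBR296C), the sodium-coupled high-affinity transporter, read 27.4, 33.9 and 30.3 under C and 1276, 1217 and 1025 under P limitation, 38.4-fold higher (log2 5.26 ± 0.19). GIT1 (YCR098C), the importer of glycerophosphoinositol and glycerophosphocholine, read 18.2, 19.9 and 12.0 against 1117, 841 and 950. With an array at the floor this rise is at least 59.0-fold (log2 5.88 ± 0.25). These 3 genes also read high under Zn limitation, a further deposit, at means of 450.5 ± 104 for PHO84, 899 ± 156 for PHO89 and 342 ± 118 for GIT1 (SD, n = 3). PHO84 was thus far lower there than its P-limited mean of 3923 ± 473, whereas PHO89 approached its P-limited 1172 ± 132. That contrast was not tested.

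Changes were smaller among low-affinity transporters. PHO87 (log2 -0.91 ± 0.27) and PHO90 (log2 -0.60 ± 0.19) of the plasma membrane were not called, at 1.87-fold and 1.51-fold lower. PHO91, which exports phosphate from the vacuole, read 136, 106 and 127 under C and 293, 258 and 259 under P limitation, a rise of 2.19-fold that was not called against S limitation (1.36-fold, adjusted p = 0.14). The lone phosphate gene that fell was MIR1 (YJR077C), the carrier that brings phosphate into mitochondria, with 1347, 1223 and 1143 under C and 229, 453 and 383 under P limitation. It was 3.62-fold lower (log2 -1.85 ± 0.26, adjusted p = 1.5e-04) and also lower than under S limitation, by 2.19-fold. The other mitochondrial phosphate carrier, PIC2, was not called (log2 0.34 ± 0.19), nor were PHO86, which lets Pho84 leave the endoplasmic reticulum, and SND3, known also as PHO88.

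Of the phosphatases, 6 of 8 tested were higher, none lower. PHO3 (YBR092C), a secreted acid phosphatase known for being repressed by thiamine, read 121, 121 and 80.3 under C and 3408, 4079 and 4074 under P limitation, 36.4-fold higher (log2 5.19 ± 0.31, adjusted p = 3.3e-08). It was 82.1-fold above S limitation. None of the 12 genes tested for thiamine synthesis and uptake was called by limma in either comparison, with 3 (P against C) and 1 (P against S) at an unadjusted p under 0.05. PHO5, the repressible acid phosphatase classically induced by phosphate starvation and a close relative of PHO3 beside it on the chromosome, lay at the floor on all 15 wild-type arrays and was not tested. The same probe set read 73.7, 140 and 127 on the C-limited mutant arrays. PHO11 and PHO12 were not analysed here, having no probe set of their own. PHO3 and PHO5 are similar enough in sequence for probes to be shared, and how far their probe sets tell them apart was not tested.

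The phosphatases inside the cell rose as well. PHO8, the vacuolar alkaline phosphatase, was 5.31-fold higher (log2 2.41 ± 0.18). PHM8, which frees phosphate from nucleoside monophosphates and lysophosphatidic acid, was at the floor on every C-limited array and read 208, 106 and 161 under P limitation, at least 12.7-fold higher. Its mean was 187 ± 36.2 under Zn limitation, against 158 ± 51.1 under P limitation (SD), a contrast that was not tested. The glycerol-3-phosphate phosphatases, which make glycerol and free phosphate, both rose. GPP2 (YER062C) read 51.5, 45.4 and 38.5 against 639, 492 and 801, 14.1-fold higher (log2 3.82 ± 0.21), while the more abundant-reading GPP1 rose 2.92-fold (log2 1.55 ± 0.17). DDP1, a phosphatase of diphosphoinositol polyphosphates and polyphosphate, rose 3.34-fold. PHO13 and DIA3 were not called. PHO8, PHM8, GPP1, GPP2 and DDP1 were all called higher than under S limitation too, by 2.36-fold (GPP1) to 9.32-fold (PHM8).

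The polyphosphate list holds genes of the polymerase and of the enzymes that break the polymer down, and 5 of its 8 genes rose, from both kinds. All of VTC1, VTC2, VTC3 and VTC4, which encode the vacuolar transporter chaperone complex that makes polyphosphate, rose. VTC3 (YPL019C) read 69.4, 61.6 and 68.2 under C and 861, 708 and 695 under P limitation, 11.3-fold higher (log2 3.50 ± 0.16, adjusted p = 1.1e-09). The catalytic subunit gene VTC4 rose 7.40-fold, VTC1 6.30-fold and VTC2 3.72-fold, so that VTC3, the alternative to Vtc2 in the complex, moved furthest. VTC5, which raises the activity of the complex, was not called at 1.53-fold (adjusted p = 0.042). Among the polyphosphatases PPN2 rose 2.43-fold (log2 1.28 ± 0.21), while PPN1 (1.47-fold) and PPX1 (1.42-fold) were not called.

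In the signalling list 4 of 13 tested rose and none fell. SPL2 (YHR136C), whose product takes the low-affinity transporters off the plasma membrane, read 12.4, 12.0 and 12.0 under C and 1052, 820 and 1341 under P limitation, at least 86.6-fold higher (log2 6.44 ± 0.33, adjusted p = 5.3e-09). It was as low under S limitation, at 12.0, 12.1 and 12.0. PHO81, the inhibitor of the Pho80-Pho85 kinase, rose 6.00-fold (log2 2.59 ± 0.20), from 115, 104 and 162 to 756, 645 and 858. KCS1 and VIP1, the kinases that make inositol pyrophosphates, the signals that SPX domains of phosphate proteins bind, rose 3.00-fold and 3.85-fold. Of the 5 probe sets of VIP1, 2 were called higher and 3 were not called, and their mean was not called (log2 0.82). KCS1 also read above its C-limited mean of 78.3 ± 21.2 in 2 other wild-type groups. Its means were 179 ± 29.8 under nitrogen, 172 ± 14.35 under Zn and 235 ± 63.7 under P limitation (SD). These contrasts were not tested. The rest of the core pathway was not called: PHO4 (log2 0.22 ± 0.47), PHO80 (log2 -0.55 ± 0.26) and PHO85 (log2 -0.03 ± 0.19), with PHO2 at the floor on all 6 arrays. The inositol phosphate genes ARG82, IPK1 and PLC1 were not called either, nor were SYG1 and PHO23, and PHO92 was at the floor on all wild-type arrays.

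Among genes that take phosphate from lipids, GDE1, which splits glycerophosphocholine, rose 4.32-fold (log2 2.11 ± 0.23). The phospholipase B genes differed from each other: PLB3 read 20.4, 26.3 and 36.5 against 213, 280 and 146 (7.62-fold higher), PLB1 rose 2.80-fold and PLB2 was not called (log2 -0.61 ± 0.19). PLB1 was not called against S limitation (log2 0.09 ± 0.30). Its means were 385.5 ± 27.7 under nitrogen, 495 ± 110 under Zn and 351.5 ± 94.6 under P limitation (SD). Those of PLB3 were 106 ± 18.9, 119 ± 18.55 and 213 ± 67.0. These contrasts were not tested. NTE1, PGC1 and SPO14 were not called. PHM6, a phosphate-responsive gene of unknown function, rose 12.0-fold, from 63.8, 56.1 and 65.0 to 864, 610 and 766. PHM7 was at the floor on all 6 arrays.

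**Figure D2:**
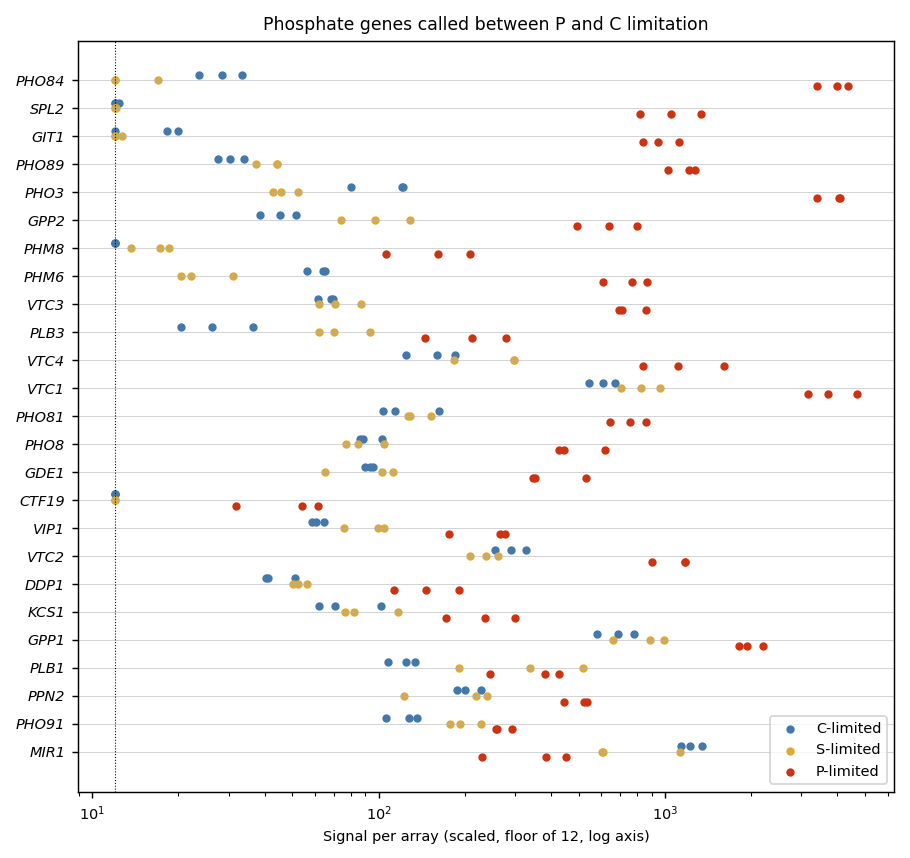
Signal on each array (x axis, log scale, floor of 12 dotted) for the 25 members of the phosphate lists called between P and C limitation, ordered by their difference. They include CTF19, a kinetochore gene. Blue, yellow and red points are the 3 C-, S- and P-limited arrays; the red points lie right of the blue ones in 24 genes and left of them in MIR1.

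Against the C-limited mutant of the same deposit, 109 of 5461 genes were higher under P limitation (2.00%) and 173 lower (3.17%), or 130 and 330 without the mutant's replicate 1. There the transporter list had 4 higher and 1 lower, polyphosphate 5 higher and signalling 4 higher, with and without replicate 1. Of the phosphatases 6 of 9 tested were higher and 1 lower, with and without replicate 1. With all arrays the lower gene was PHO5. The lipid list differed, with 1 gene called, higher, both with and without replicate 1. With all arrays this was GDE1, while PLB1 (log2 -0.25, adjusted p = 0.74) and PLB3 (log2 0.75, adjusted p = 0.16) were not called. PHO84 read 75.2, 123 and 144 on the mutant arrays, above the C-limited wild type, and its difference there was log2 5.15.

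The genes next to the risen phosphate genes were examined, a choice made after their values were seen, with the order and strands of genes taken from the R64 reference annotation. Of the 37 tested neighbours that are not themselves among the 24, 1 was higher and 8 were lower, beside 4.09% and 7.96% of all genes. VTC3 and CTF19, both among the 24, lie side by side and were left out of the 37. With them, 3 of 39 tested neighbours were higher. All 3 were among the 11 transcribed away from the phosphate gene, and none among the 28 others. CTF19, a kinetochore gene, was at the floor on every C-limited and S-limited array and read 31.9, 61.7 and 54.1 under P limitation, at least 3.95-fold higher, a call lost with a floor of 24 (log2 0.98). Outside the 24, the neighbour that rose was ARO9, an aromatic aminotransferase gene beside SPL2 and transcribed away from it. ARO9 read 12.0, 16.4 and 12.0 under C, 12.0, 12.3 and 15.4 under S and 190, 128 and 136 under P limitation. It was at least 11.2-fold higher than under C limitation (log2 3.48 ± 0.29, adjusted p = 9.6e-07) and at least 11.3-fold higher than under S limitation.

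Genes of sulfur uptake were lower under P than under C limitation. Yeast takes up sulfate through Sul1 and Sul2 and reduces it to sulfide for methionine and cysteine. SUL1 (YBR294W) read 1251, 1040 and 991 under C limitation and lay at the floor throughout the P-limited group, a difference of at least 90.7-fold (log2 -6.50 ± 0.14, adjusted p = 2.5e-13). None of the 5450 genes fell further. SUL2 read 659, 462 and 411 against 58.3, 70.7 and 42.7, 8.93-fold lower (log2 -3.16 ± 0.20). In the uptake and scavenging list 6 of 13 were lower and none higher, among them MMP1, the S-methylmethionine permease gene (at least 9.45-fold), and MHT1, its methyltransferase partner (at least 5.63-fold). SUL1 read 239, 475 and 387 on the C-limited mutant arrays, so that the floor level under P limitation was again at least log2 4.88 below.

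Within the assimilation pathway, 5 of 26 genes were lower and none higher. MET3, ATP sulfurylase, the entry enzyme, fell from 665, 651 and 681 to 159, 186 and 102 (4.61-fold), and MET14, the next kinase, 3.27-fold. MET1, needed for the sirohaem of sulfite reductase, fell 2.68-fold. The cofactor gene MET32 of the Met4 activator fell 3.50-fold and MET28 2.20-fold, whereas MET4 (log2 -0.35 ± 0.24) and CBF1 (log2 0.28 ± 0.20) were not called. CYS3, which makes cysteine from cystathionine, was not called (log2 0.69 ± 0.19), with 757, 752 and 505 under P and 505, 380 and 356 under C limitation. YCT1, a cysteine transporter gene, fell 2.26-fold but was not called against the mutant (log2 -0.81). MET2 (log2 -0.93) and MET28 (log2 -0.98) lost their call without C-limited replicate 1, and MET16 (log2 -0.88) without P-limited replicate 3. With a common median MET2 (log2 -0.86), MET28 (log2 -0.93) and YCT1 (log2 -0.97) were not called.

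**Figure D3:**
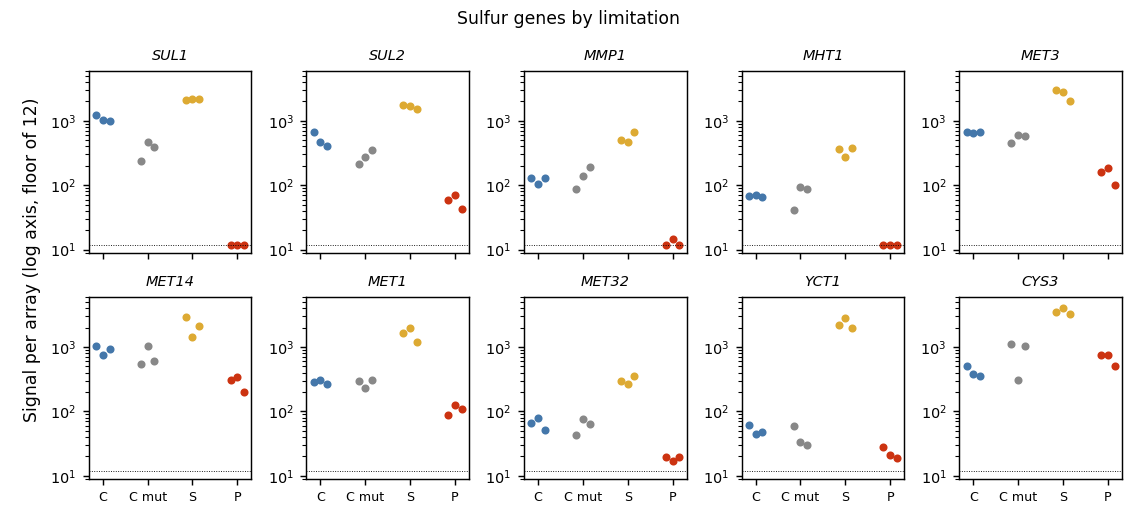
Signal per array (y axis, log scale, floor of 12 dotted) of 10 sulfur genes in the C-limited wild type (C), the C-limited msn2 msn4 mutant (C mut), and the S- and P-limited wild type, 3 arrays each. SUL1 and MHT1 never exceed the floor under P limitation, and CYS3 differs from the others in a higher mean under P than under C limitation.

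Glucose transport genes changed in both directions. Of the 18 tested genes for hexose transport and glucose sensing, 6 were higher and 5 lower. HXT4 read 12.0, 13.5 and 12.0 under C and 1084, 815 and 1040 under P limitation, at least 77.9-fold higher (log2 6.28, adjusted p = 6.9e-04). Its standard error was 1.08, which rests on the spread within all 5 wild-type groups. The nitrogen-limited group among them read a mean of 529 ± 448 (SD). Against the mutant, whose arrays read 731, 24.5 and 23.5, HXT4 was not called. The low-affinity transporter HXT3 rose 12.8-fold, from 135, 221 and 206 to 2249, 2249 and 2531, and HXT1, another low-affinity transporter gene, at least 5.95-fold. HXT2, a high-affinity transporter gene, also rose, from 248, 425 and 301 to 766, 1041 and 791 (2.71-fold). MIG2, a glucose repressor, rose at least 5.04-fold and STD1, a regulator of the HXT genes, 4.09-fold. Of the other high-affinity transporter genes, HXT7 read 3543, 3641 and 3843 against 1217, 853 and 661 (4.16-fold lower) and HXT6 fell 3.80-fold. HXT6 and HXT7 are near-identical, share probes on this array and cannot be read as separate measurements. The sensor gene SNF3 fell 2.44-fold and MTH1, a corepressor of HXT genes, 2.27-fold. The call of SNF3 was lost with a floor of 24 (log2 -0.56) and that of MTH1 with a common median (log2 -0.97). In P against S limitation only HXT1 (2.31-fold) and MIG2 (2.73-fold) of this list were called, both higher, beside 2.07% of all genes. The arrays of HXT1 overlapped there, at 37.1, 89.7 and 109.5 under P and 23.4, 33.4 and 37.6 under S limitation.

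Genes for other sugars were lower. In the sucrose and maltose list 5 of 7 fell and none rose: SUC2, invertase, read 2366, 1829 and 2079 against 209, 145 and 184 (11.7-fold lower), and MAL31, a maltose permease gene, fell 10.9-fold. MAL11 (YGR289C), another alpha-glucoside permease gene, read 703, 1031 and 918 under C and 36.1, 23.1 and 30.6 under P limitation, 29.6-fold lower (log2 -4.89 ± 0.19). On the C-limited mutant arrays MAL11 read 36.7, 47.5 and 47.4. MAL31 read 32.3, 66.4 and 79.4 there and 34.6, 24.4 and 25.3 under P limitation (log2 -1.00, adjusted p = 0.067), and limma called no gene of the list against the mutant, with 4 of 7 at an unadjusted p under 0.05. Without the mutant's replicate 1, 4 genes of the list were called lower. In the list of gluconeogenesis and the glyoxylate cycle 7 of 17 fell and none rose. RGI2 was at least 38.2-fold lower, from 305, 462 and 684 to the floor on every P-limited array. PCK1, which makes phosphoenolpyruvate for gluconeogenesis, fell 8.02-fold, and JEN1, the lactate permease gene, at least 5.25-fold. RGI1, the relative of RGI2, fell 3.46-fold against the C-limited wild type and was higher than in the mutant, where it read 29.8, 73.6 and 71.1 against 237, 107 and 168 under P limitation. None of the 17 was lower than under S limitation, where RGI1 and REG2 were higher.

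Although all cultures were labelled anaerobic, nuclear genes for respiration read well above the floor under C limitation and were lower under P limitation. CYC1 (YJR048W), the main cytochrome c gene, read 273, 237 and 229 under C limitation and lay at the floor throughout the P- and S-limited groups, a difference of at least 20.4-fold from C (log2 -4.35 ± 0.12, adjusted p = 5.3e-12). Of the respiratory chain list 20 of 25 fell and none rose (median log2 -1.75), and of the ATP synthase list 15 of 17 fell and none rose (median log2 -1.60). COX5A, the cytochrome oxidase subunit of aerobic cells, read 549, 486 and 449 against 91.4, 60.6 and 54.2 (7.36-fold lower), whereas its hypoxic partner COX5B was not called (log2 0.21). INH1, the inhibitor that stops the ATP synthase from running backwards, fell 6.62-fold. HAP4, the activating subunit of the factor that drives these genes, fell 3.69-fold, from 160, 198 and 168 to 43.5, 53.8 and 45.4. Limma called none of the 42 respiratory chain and ATP synthase genes against S limitation, with 10 at an unadjusted p under 0.05.

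Other mitochondrial genes were lower as well. All of SDH1, SDH2, SDH3 and SDH4, the succinate dehydrogenase genes, fell 2.34-fold to 4.32-fold, within 6 of 17 tricarboxylic acid cycle genes that fell. Of 67 mitochondrial ribosomal protein genes 34 fell and none rose (median log2 -1.02), with MRPL32 at 3.52-fold. This count was 22 after quantile normalisation and with a common median. Of 80 cytosolic ribosomal protein genes 3 fell and none rose. Against the C-limited mutant 10 of 25 respiratory chain genes were lower, 4 of 17 ATP synthase genes, 1 of 17 cycle genes and 7 of 67 mitochondrial ribosomal protein genes. These became 18, 13, 6 and 39 without the mutant's replicate 1, on which CYC1 read 33.6 against 184 and 271, and COX5A 87.1 against 332 and 366. With and without that array, 2 respiratory chain genes and 1 ATP synthase gene were called higher under P limitation than in the mutant. With all arrays these were CYC7 (log2 1.34), COX5B (log2 1.58) and STF2 (log2 1.97), of which CYC7 fell against the C-limited wild type (log2 -1.20). That fall lost its call without C-limited replicate 2, P-limited replicate 2 or P-limited replicate 3. It was also not called after quantile normalisation (log2 -0.97) or with a common median (log2 -0.98).

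**Figure D4:**
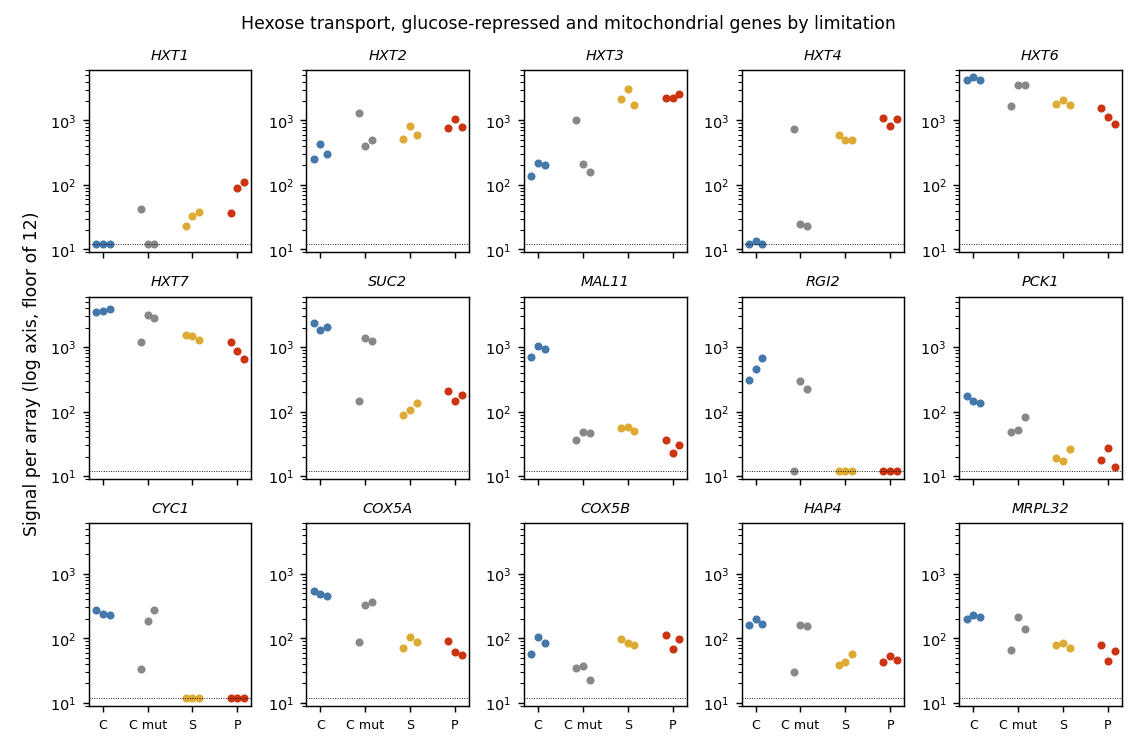
Signal per array (y axis, log scale, floor of 12 dotted) of hexose transport, glucose-repressed and mitochondrial genes in the C-limited wild type (C), the C-limited msn2 msn4 mutant (C mut, replicate 1 drawn leftmost), and the S- and P-limited wild type. CYC1 and RGI2 never exceed the floor under S or P limitation, and MAL11 is low in every group but the C-limited wild type.

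Some isoform pairs of fermentation and glycerol genes had 1 member called and the other not. Of 34 genes for glycolysis and fermentation 3 rose and 2 fell, beside 4.09% and 7.96% of all genes. No member of the pairs ENO1 and ENO2 or TDH1 and TDH3 was called. GPD1, the glycerol-3-phosphate dehydrogenase that supplies the Gpp phosphatases, read 224, 267 and 292 under C and 1124, 1176 and 962 under P limitation, 4.17-fold higher (log2 2.06 ± 0.18), while its isoform GPD2 was not called (log2 -0.66). GPD1 was not called against S limitation (1.74-fold, adjusted p = 0.012) or against the mutant. PYK2, the pyruvate kinase that works without fructose 1,6-bisphosphate, rose 2.64-fold and the main pyruvate kinase gene CDC19 was not called (log2 0.32). HXK1, a glucose-repressed hexokinase gene, fell 2.71-fold while HXK2 was not called (log2 0.11). ALD4, the mitochondrial aldehyde dehydrogenase gene, fell 4.53-fold. ADH4 rose 2.11-fold, a call lost without C-limited replicate 2 (log2 0.98). The call was also lost with the mean over its probe sets (log2 0.54), of which only 1 exceeded the floor on any wild-type array.

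The reserve carbohydrate genes, the subject of the series, mostly lacked a call, as did 4793 of the 5450 genes tested. Of 29 genes for glycogen and trehalose 1 rose and 2 fell, near the 4.09% and 7.96% of all genes. Limma called none against S limitation, where 4.7% of all genes were called, with 7 at an unadjusted p under 0.05. GAC1, which targets the Glc7 phosphatase to glycogen synthase, fell 10.1-fold and GLG1, the primer of glycogen chains, 2.58-fold, the latter not called with a floor of 24 (log2 -0.83). TPS3, a regulatory subunit of trehalose synthase, rose 2.09-fold, a call lost without C-limited replicate 2 (log2 0.96) or P-limited replicate 1 (log2 0.90). The glycogen synthase genes GSY1 (log2 -0.32 ± 0.17) and GSY2 (log2 0.12 ± 0.21), the phosphorylase gene GPH1 (log2 -0.21 ± 0.50) and the trehalose synthase gene TPS1 (log2 -0.01 ± 0.23) were not called. Of the 4 Pho85 cyclin genes tied to glycogen control, PCL8 read 52.3, 50.3 and 47.7 against 32.6, 24.2 and 23.3 (1.90-fold lower) without reaching the fold required, and PCL6, PCL7 and PCL10 were not called. Against the C-limited mutant, where limitation and genotype both differ, 7 of the 29 were higher and 1 lower, with and without its replicate 1. GSY1 read 25.5, 25.0 and 36.9 on the mutant arrays and 125, 103 and 143 under P limitation (log2 2.10), and GPH1 read 13.2, 23.3 and 21.1 against 254, 182 and 129 (log2 3.28). GSY2 (log2 1.20) was higher too, as were GLC3, GDB1, TPS3 and TSL1, and GAC1 was lower (log2 -1.18).

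Seripauperin genes, a family of cell wall mannoproteins made under anaerobic conditions, stood higher under P limitation. Among the largest rises were PAU15 (11.6-fold), PAU19 (8.02-fold) and PAU10 (8.02-fold). PAU15 read 102, 111 and 195 under C, 98.3, 55.7 and 69.5 under S and 1106, 1186 and 2642 under P limitation. All 10 PAU genes with a probe set of their own, a set counted after these values were seen, were higher under P than under C limitation (log2 1.14 to 3.54). All 10 were also higher than under S limitation, and 9 were higher than in the C-limited mutant, counted only with all its arrays. Each of these probe sets is marked by the manufacturer as shared within a gene family, so the 10 cannot be read as separate measurements. In the list of anaerobic wall and hypoxic genes 3 of 20 rose and 2 fell, beside 4.09% and 7.96% of all genes. TIR3, among those that rose, lost its call without C-limited replicate 1 (log2 0.99) or P-limited replicate 3 (log2 0.91). DAN4, a cell wall mannoprotein gene, rose 3.56-fold, and CWP2, a major wall mannoprotein gene of aerobic cells, read 829, 706 and 663 under C, 1428, 2469 and 1640 under S and 313, 386 and 158 under P limitation. CWP2 was thus 2.73-fold below C and 6.72-fold below S limitation. HEM13, the oxygen-requiring haem enzyme gene induced without oxygen, was not called (log2 0.59 ± 0.21), and AAC3, the anaerobic ADP/ATP carrier gene, was not called (log2 0.52) while its aerobic partner PET9 fell 2.23-fold, a call lost with a common median (log2 -0.94). Of 25 ergosterol synthesis genes limma called none, with 9 at an unadjusted p under 0.05.

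**Figure D5:**
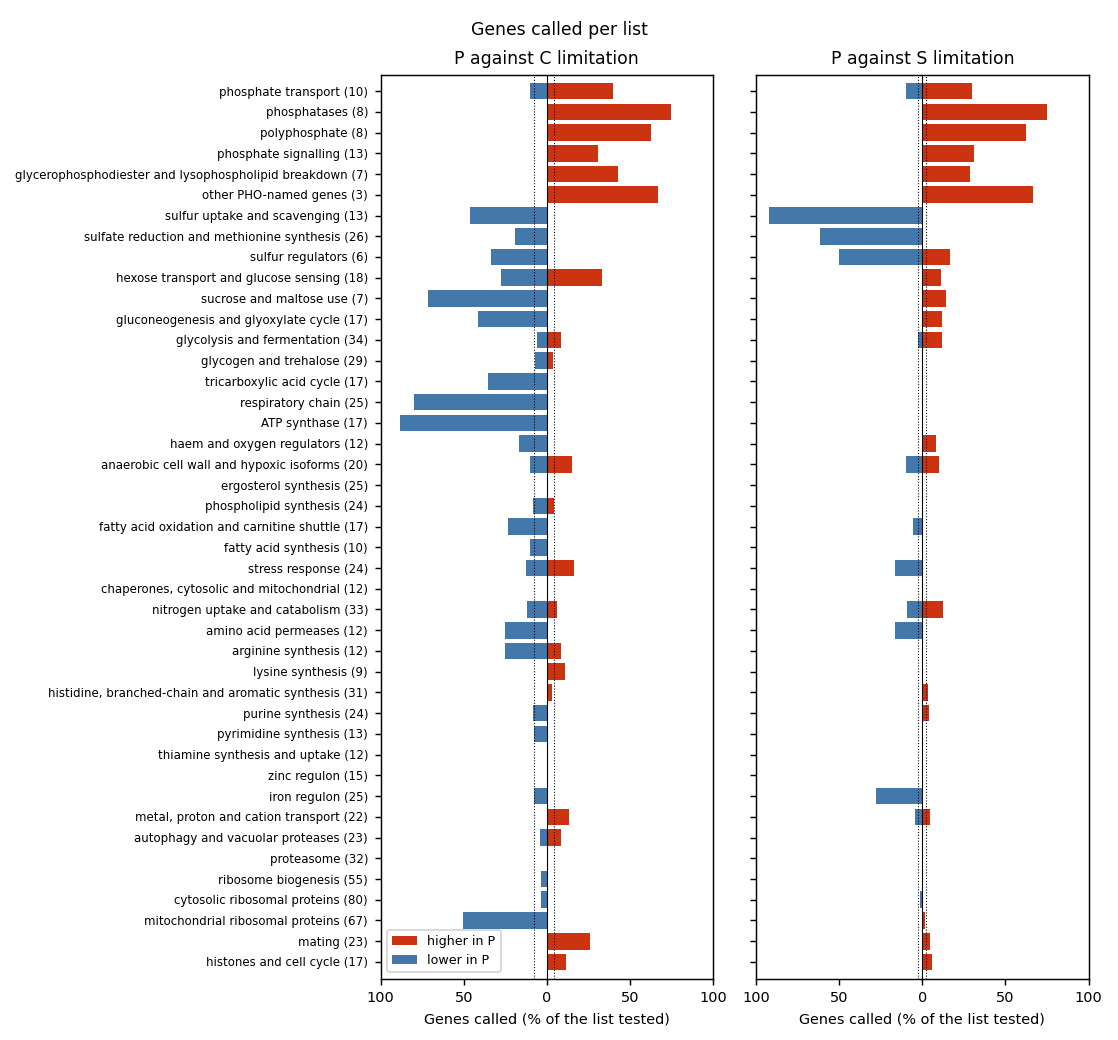
Share of each gene list called higher (red, right) and lower (blue, left) under P limitation, against C limitation in the left panel and S limitation in the right, with the number of genes tested in brackets; dotted lines are the shares over all genes tested. The phosphate lists point right in both panels, apart from MIR1 in the transport list, while the respiratory, ATP synthase and mitochondrial ribosomal lists point left against C limitation only.

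Mating genes were called against the C-limited wild type and not against the mutant of the shared deposit, a contrast that was not tested. Of 23 genes 6 rose against the C-limited wild type and none fell: AGA1, the anchor subunit of a-agglutinin, read 72.5, 60.2 and 54.4 under C and 374, 339 and 431 under P limitation, 6.13-fold higher (log2 2.62 ± 0.16). AGA2, its adhesive partner, rose 2.83-fold, PRM1, a membrane fusion gene, 3.08-fold and FUS3, the pheromone kinase gene, 2.53-fold. The call of FUS3 was lost with the mean over all its probe sets (log2 0.96), which takes in any that never exceeded the floor. Its probe sets that did exceed it were both called higher (log2 1.34 and 1.53). Limma called none of the 23 against the C-limited mutant, with or without its replicate 1, and 4 had an unadjusted p under 0.05. AGA1 read 197, 129 and 334 on the mutant arrays. Against S limitation FUS3 alone was called.

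Other transporters and permeases changed singly. MEP3, an ammonium permease gene, fell 9.97-fold, from 222, 238 and 189 to 36.8, 18.5 and 14.8, while MEP1 was not called (log2 0.12). BAP2, a branched-chain amino acid permease gene, read 342, 337 and 295 under C and 30.0, 35.4 and 30.7 under P limitation, 10.1-fold lower, and 3.30-fold below S limitation. It was not called against the mutant (log2 -0.65). AQR1, an exporter of amino acids and acids, was at least 12.9-fold lower, with no P-limited array above the floor, but read 12.0, 25.0 and 20.7 in the mutant and was not called there. ALR1, the plasma membrane magnesium transporter gene, rose 2.49-fold against C (131, 97.5 and 105 to 319, 245 and 265) and 2.31-fold against S limitation, and was higher than in the mutant as well. TPO2, a polyamine exporter gene, was at least 22.6-fold higher (13.4, 12.0 and 17.9 against 314, 255 and 416) and was not called against S limitation or the mutant. HMS2, a gene related to heat shock factors, rose 14.7-fold. Among kinases, MRK1, a glycogen synthase kinase 3 homologue, fell 26.5-fold, from 439, 527 and 600 to 20.4, 18.0 and 20.3, and also stood lower than in the mutant (log2 -2.08).

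Lipid and stress genes were called in both directions, to be read beside 4.09% of all genes higher and 7.96% lower. In phospholipid synthesis, PAH1, the phosphatidate phosphatase that turns phosphatidate into diacylglycerol, rose 2.61-fold, while INO1, inositol-3-phosphate synthase, fell 3.01-fold (152, 104 and 116 against 38.4, 41.9 and 41.5) and CDS1, CDP-diacylglycerol synthase, 2.43-fold, of 24 tested. The call of INO1 was lost without C-limited replicate 1 (log2 -1.43) and that of CDS1 without P-limited replicate 3 (log2 -0.82). In beta-oxidation and the carnitine shuttle 4 of 17 fell and none rose, with the carnitine acetyltransferase gene CAT2 at 3.85-fold. The stress list gave 4 higher and 3 lower of 24: GRE3, an aldose reductase gene, rose 2.56-fold and HSP42, a small heat shock protein gene, 2.49-fold, with MRK1 among those lower. Limma called none of 12 chaperone (cytosolic and mitochondrial), 32 proteasome and 15 zinc regulon genes against C limitation, with 5, 10 and 6 at an unadjusted p under 0.05. The 5 chaperone genes include the mitochondrial HSP60 (log2 -0.55), HSP10 (log2 -0.65), HSP78 (log2 -0.60) and SSC1 (log2 -0.41). Of 55 ribosome biogenesis genes 2 fell.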

How the data were processed

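Signal intensity per probe set of 21 Affymetrix YG-S98 arrays was used as the authors deposited it, a linear intensity from GCOS (version 1.2, per the submitters' processing notes); no other upstream step was available here. Arrays were then brought to the same 2% trimmed mean (150.2) with a floor of 12, and analysed as log2. Of 9335 probe sets 60 were controls, 6504 matched 1 gene, 328 several and 2443 none, through the platform annotation given here, with symbols updated to the yeast reference R64. The probe set with the highest mean signal was kept for each of 315 genes with several, giving 5656 genes, and genes at the floor on all 15 wild-type arrays were left out, which left 5450.

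A model of the 5 wild-type group means (limma 3.58.1, lmFit and eBayes, under R 4.3.3) was fitted, with P minus C and P minus S as contrasts and Benjamini-Hochberg adjustment over all genes tested. Calls needed both an adjusted p under 0.05 and a 2-fold difference. P-limited wild type minus C-limited mutant was added after the data were seen, in a fit of all 21 arrays. Folds are ratios of geometric means, log2 values carry their standard error, signals their SD, and a fold is given as a lower bound if the lower group had any array at the floor. P-values measure the spread between arrays. Same-numbered arrays do not pair by the labels.

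The members and lists were chosen with earlier results of these data known. The text names all measured phosphate genes. The selection also held all measured glycogen and trehalose genes and, from other lists, up to 5 called genes each way and 3 not called. Isoform pairs were added, with the 20 highest and lowest genes called against C limitation whose arrays do not overlap, and 10 against S limitation. Outside the phosphate lists only a part of this selection is named in the text. Others are said to be chosen after their values were seen. The alternatives were other scalings, floors, filters, probe set rules, sample sets, a replicate block, an intensity trend and leaving out each array. The fit was tested on simulated data.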

Additional observations from a re-analysis of the deposited data

Results flagged for a closer look

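Probe sets to which the annotation used here gives no gene took no part in the comparisons above. Of 1220 of them tested, 28 were higher and 44 lower under P limitation. The 3 with the largest rises are listed because they carry a signal well above the C-limited arrays. Probe set 5537_at read 46.8, 55.3 and 68.0 under C and 742, 508 and 880 under P limitation, 12.4-fold higher (adjusted p = 1.7e-06 by limma), and 343, 193 and 168 under S limitation. Probe set 3324_at read 12.1, 16.7 and 22.2 against 180, 114 and 137, 8.54-fold higher (adjusted p = 3.2e-05), and 25.5, 19.7 and 52.8 under S limitation. Probe set 4623_at read 52.6, 106 and 75.3 against 461, 250 and 460, 5.01-fold higher (adjusted p = 0.0079). Under S limitation it read 111, 42.5 and 303, which overlaps its P-limited arrays.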

How the results depend on the processing

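The count of 657 genes called between P and C limitation kept within 1.5 times under every alternative run but the values as deposited. Without a common scale 2115 genes were called, 66 higher and 2049 lower, with a median log2 difference of -0.81 over all genes. The other alternatives gave 540 (floor of 24) to 798 (floor of 1) genes, and 789 probe sets when each was tested on its own. Leaving out 1 of the arrays compared gave 561 to 756 genes against C limitation and 235 to 317 against S limitation, where the full set gave 256. Replicate numbers do not pair the samples: correlations of same-numbered deviations were 0.003, -0.118 and -0.022 for P with C, and 0.214, -0.174 and -0.253 for P with S. With the replicate block 658 and 256 genes were called. The division of the calls turned: 223 higher and 434 lower became 335 and 261 with a common median. No single gene or list named above was called in the opposite direction under any alternative. Among the named genes outside the phosphate lists, 29 lost their call against C limitation when some 1 array was left out, TPS3, ADH4, HSP26, INO1, CDS1, DDR2, CIT1 and TIR3 among them. The cause of these changes was not tested. Signals near the floor of 12 limit what can be said of weakly expressed genes: 7 genes called higher never exceeded it under C limitation, and 24 called lower never did under P limitation.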
